A study of Mus musculus with 3 samples.

Results

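Axon guidance ligands and receptors are the cell surface and secreted proteins that steer growing axons: ephrins and their Eph receptor tyrosine kinases, semaphorins and their plexin and neuropilin receptors, netrins with Dcc and the Unc5 receptors, and Slits with the Robo receptors. Contact with a ligand turns or halts the growth cone at the axon tip, and several of these proteins go on to act at synapses. Genes were chosen by symbol, as the protein-coding genes of these families, and the rule used no measured value, although the families were picked with earlier results of these data known. The annotation holds 69 such genes. Of these, 68 have a transcript with both UTRs and a coding sequence (CDS) and were analysed among 20823 genes in all. Epha6, an EphA receptor, lacks a transcript with all 3 regions and is not analysed here.

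Ribosome footprints, the mRNA fragments that ribosomes shield from nuclease, were read from primary mouse cortical neurons in 3 libraries. The WT library came from cells without drug. The Chx library came from cells given cycloheximide, a blocker of elongation, for 2 min. The Harr library came from cells given harringtonine for 2 min and then a cycloheximide pulse; harringtonine traps ribosomes at initiation and lets those farther along finish. Each library was made from 3 pooled dishes, and cycloheximide at 100 μg per ml was present in the rinse and lysis buffers of all of them. With 1 library per treatment no difference below has a replicate check and no test was run. All intervals cover counting error only, and they treat reads as independent molecules, which PCR copies are not. A footprint count reflects both the amount of an mRNA and its translation, and these cannot be told apart here, nor can fewer cells of a type and less RNA per cell.

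The libraries held 35722483 (Chx), 9754412 (Harr) and 30219197 (WT) reads, so that 3 counts correspond to 0.084, 0.308 and 0.0993 reads per 1000000. Neuronal markers gave 4558 (Chx), 4041 (Harr) and 4727 (WT) CDS reads per 1000000 over 8 genes, none of them at 0. Among them only Map2 was higher in Harr than in Chx per library read, and every other neuronal marker was lower. Per kilobase of CDS and 1000000 library reads, Map2 had 378 (Chx) and 529 (Harr), and Tubb3 had 661 and 200. The 4 astrocyte markers summed to 195 (Chx), 78.8 (Harr) and 213 (WT) reads per 1000000, none at 0, and their part in the differences below was not tested. The 4 endothelial markers stayed at or below 0.252 reads per 1000000, the 4 microglial markers at or below 2.8 and the 4 oligodendrocyte markers at or below 6.52. The 4 markers of mural cells and fibroblasts gave 26.4 (Chx), 14.1 (Harr) and 28.9 (WT), none at 0, and their part was likewise not tested.

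The start codons of some of the genes at the ends of the later 5′ UTR comparisons, those described there in most detail, are shown here, each as 15 bases before the start codon, the start codon in capitals and 12 bases after it, from the spliced GENCODE M21 transcript (mm10).
Ntn1: caagctggccacagcATGatgcgcgctgtg
Efnb1: tctgccccggggaaaATGgcccggcctggg
Efna5: cgctggctaggcgtgATGttgcacgtggag
Ephb3: ggcgacggggagtggATGgtgcccgtcggt
Plxnd1: cccgcgctcgcctggATGgctcgtcgcgcc
Efna3: gcggcggctccggggATGgcggcggctccg
Sema6b: catccggtcctcaccATGtggaccccgcga

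The first base of the start codon lies on chromosome 11 at 68386120 (Ntn1, minus strand), X at 99136886 (Efnb1, plus), 17 at 62881130 (Efna5, minus), 16 at 21214928 (Ephb3, plus), 6 at 115994805 (Plxnd1, minus), 3 at 89322833 (Efna3, minus) and 17 at 56132839 (Sema6b, minus). All 68 genes start with ATG. A purine 3 bases before the start codon, the well known feature of efficient start sites, was present in 61 of the 68 (89.7%) against 84.1% of all genes. Ephb3 and Plxnd1 were among the 7 genes with a pyrimidine there. An upstream ATG occurred in the 5′ UTR of 48 genes (70.6%, all genes 55.5%), at 5.89 per kilobase of 5′ UTR against 8.57 over all genes. The 5′ UTRs were long, with a median of 307 nucleotides against 177, as were the CDS (2817 against 1146) and the 3′ UTRs (1617 against 985).

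Most of the guidance genes were translated in these neurons. Of the 68 genes, 59 had 10 or more CDS reads in the Chx library, 57 in the Harr library and 60 in the WT library. These shares of 86.8%, 83.8% and 88.2% compare with 63%, 54% and 62.3% over all genes. A limit in raw reads favours a long CDS, and the median CDS was 2817 nucleotides here against 1146 over all genes. Shares at matched length were not computed. Together the 68 genes took 0.31% of the Chx, 0.418% of the Harr and 0.273% of the WT reads. Levels between genes are compared below as CDS RPKM, the reads per kilobase of CDS and per 1000000 library reads.

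**Figure D1:**
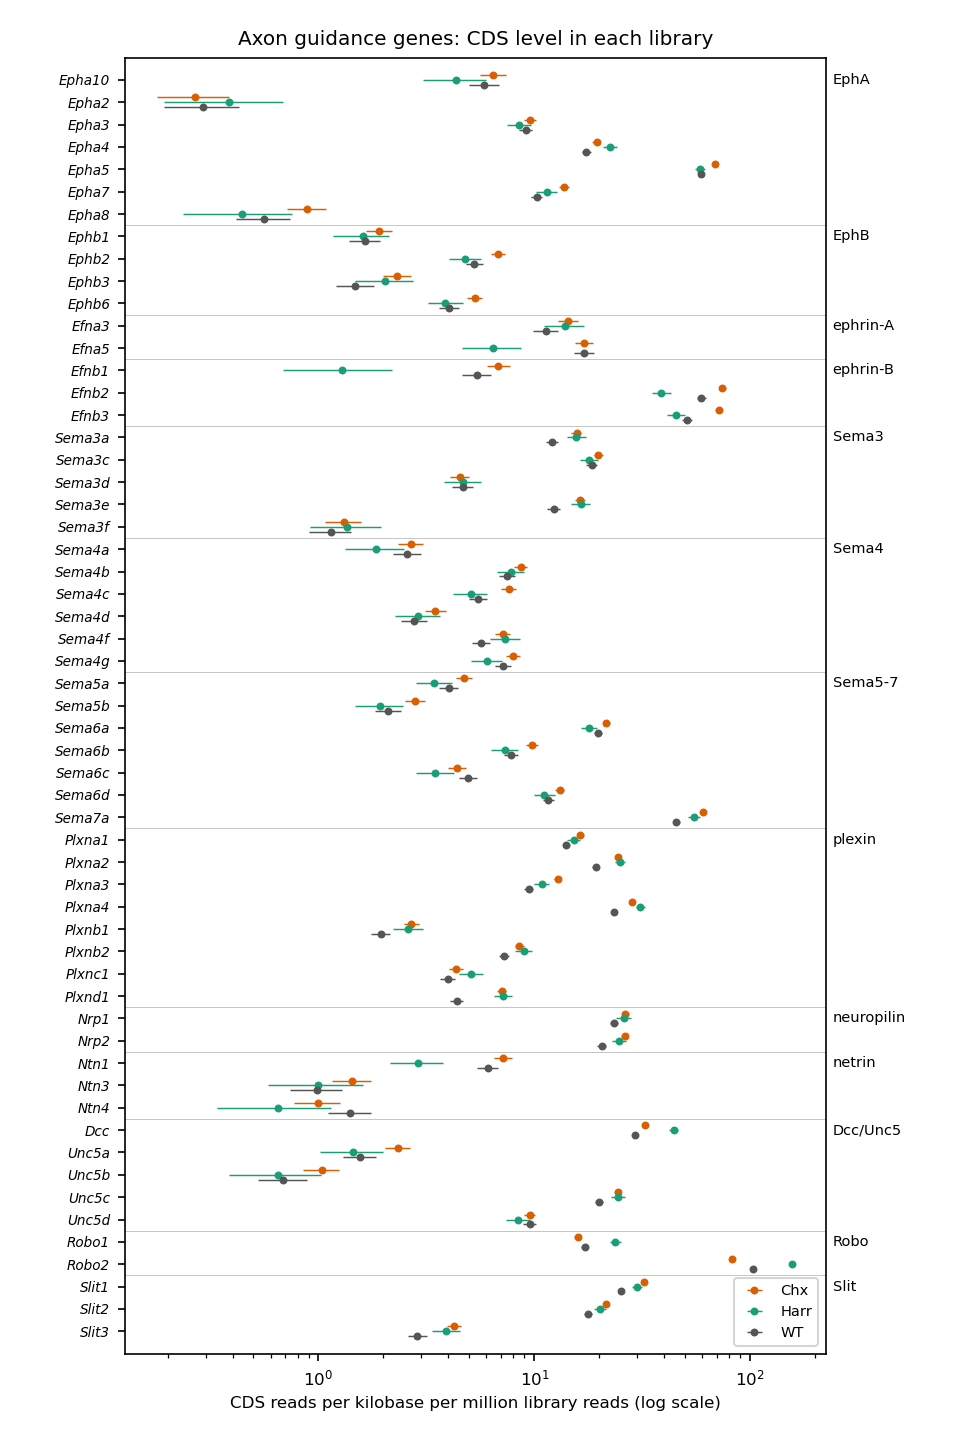
CDS RPKM (log scale) of the 57 axon guidance genes with at least 10 CDS reads in each library, by family, in Chx, Harr and WT, with exact Poisson 95% intervals of the count as bars. Robo2 stands highest in every library, and Efnb1, Efna5 and Ntn1 lie lower in Harr than in Chx and WT.

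Among the ligands, the ephrin-B genes Efnb2 and Efnb3 had the highest CDS density in Chx and WT, and Sema7a, a semaphorin, in Harr. Efnb2, a transmembrane ephrin, had a CDS RPKM of 74 in Chx, 38.8 in Harr and 59.3 in WT (2674, 383 and 1812 reads). Efnb3 reached 71.3, 45.2 and 51. Both were lower in Harr than in either other library per total reads. Per CDS read, the scale of the ratios below, Efnb3 had a log2 ratio of 0.34 (SE 0.08) of Harr to WT, the opposite direction. Efnb1, the lowest of the family in WT, gave 6.82, 1.28 and 5.42. The GPI-anchored ephrin-A ligands were led by Efna5 at 17 (Chx), 6.42 (Harr) and 16.9 (WT), followed by Efna3 at 14.3, 13.8 and 11.3. Efna5 and Efna3 therefore lay close together in Chx but apart in Harr. Efna1 was at the edge of detection with 1, 0 and 3 CDS reads on its longest transcript.

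Of the secreted class 3 semaphorins, ligands of neuropilin and plexin receptors, Sema3c was highest with a CDS RPKM of 19.7 (Chx), 17.9 (Harr) and 18.4 (WT). Sema3a and Sema3e came next in WT at 12.1 and 12.3. Sema3g had 1 read in each library. The transmembrane class 4 members were evenly low. Sema4b, the highest in WT, gave 8.65, 7.8 and 7.5, and Sema4a, the lowest, 2.67, 1.84 and 2.58. In classes 5 to 7 the GPI-anchored Sema7a stood apart at 60.7 (Chx), 54.9 (Harr) and 45.4 (WT), while the transmembrane Sema5b gave 2.81, 1.92 and 2.1.

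The other secreted ligands differed widely. Slit1, a large secreted repellent, had a CDS RPKM of 32.3 (Chx), 29.9 (Harr) and 25.2 (WT), Slit2 had 21.4, 20.2 and 17.7, and Slit3 had 4.26, 3.9 and 2.87. The order of the 3 Slits was the same in every library. Netrin levels were low, with Ntn1 at 7.17 (Chx), 2.88 (Harr) and 6.07 (WT). Ntn5 gave 0, 0 and 1 CDS reads.

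Among the receptors, Robo2 was the highest of all 68 genes in every library. For this receptor of Slits the 3 libraries held 13315 (Chx), 6868 (Harr) and 14086 (WT) CDS reads, a CDS RPKM of 82.3, 156 and 103. Its family member Robo1 gave 15.9, 23.7 and 17.1. For both genes Harr was the highest library. Robo3 had 6, 0 and 3 CDS reads and Robo4 had 0, 0 and 3.

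Epha5 was the leading Eph receptor, with a CDS RPKM of 69 (Chx), 58.4 (Harr) and 59.3 (WT). Epha4 followed at 19.4, 22.4 and 17.4, and Epha7 at 13.7, 11.4 and 10.3. Epha1 had no read in any region of any library. Of the EphB receptors Ephb2, the highest in WT, gave 6.8, 4.78 and 5.27, below these 3 EphA receptors in every library, and Ephb4 had 12, 5 and 8 CDS reads.

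Dcc, the netrin receptor that mediates attraction, had a CDS RPKM of 32.5 (Chx), 44.1 (Harr) and 29.2 (WT), again with Harr highest. Of the Unc5 receptors, which mediate repulsion from netrins, Unc5c reached 24.3, 24.4 and 19.9 and Unc5b only 1.04, 0.65 and 0.688. The plexins were led by Plxna4 at 28.4, 30.9 and 23.5, with Plxna2 at 24.3, 25 and 19.2, while Plxnb3 had 7, 5 and 9 CDS reads. The class 3 semaphorin co-receptors Nrp1 (26.4, 25.9 and 23.4) and Nrp2 (26.2, 24.7 and 20.5) were nearly equal.

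The next comparison asked how the CDS reads of each gene stood after harringtonine. The CDS ratio is the log2 ratio of reads per 1000000 CDS reads between 2 libraries, taken for the 57 genes with at least 100 CDS reads over the 3 libraries, and a gene passed the fold when the ratio was at least 0.5 in size and its 95% counting interval left out 0. Since CDS reads made up 89.2% of the footprints of these genes in Chx but 71% in Harr, the ratio describes a share of the remaining CDS reads. Harr was higher than Chx for 17 of the 57 genes, where 20.1% of all 11459 genes passed in that direction, and lower for 3, where 26.8% passed. The median ratio was 0.37 against -0.05 for all genes. Against WT, Harr was higher for 29 genes (background 23.2%) and lower for 3 (background 26.4%), with a median of 0.56 against 0.00. Both comparisons share the Harr library and are not independent.

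Receptors with a long CDS stood at the upper end. Robo2 had the highest ratio of Harr to Chx at 1.47 (counting SE 0.02), followed by Robo1 at 1.13 (SE 0.05) and Dcc at 0.99 (SE 0.04). Against WT the highest were Plxnd1, a plexin for semaphorins, at 1.23 (SE 0.09), Robo2 at 1.11 (SE 0.02) and Dcc at 1.11 (SE 0.04). All 8 plexins with enough reads passed the fold against WT, and 6 of them against Chx. Of all 836 genes with a CDS of 4000 nucleotides or more, the class of the plexins, 79.1% passed against WT and 66.3% against Chx. The 3 Slits had ratios of 0.43 to 0.46 against Chx, under the fold, and of 0.70 to 0.96 against WT, past it.

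Short ligands stood at the lower end. Efnb1 had 253 (Chx), 13 (Harr) and 170 (WT) CDS reads, and ratios of -1.81 (SE 0.40) against Chx and -1.52 (SE 0.41) against WT. Efna5 had 418, 43 and 351 reads and ratios of -0.85 (SE 0.23) and -0.87 (SE 0.23). Ntn1 had 465, 51 and 333 reads and ratios of -0.76 (SE 0.21) and -0.55 (SE 0.22). These were the 3 genes that passed the fold downward in each comparison. Efnb1 and Efna5 were 2 of 7 guidance genes with a CDS under 1200 nucleotides, where 50.5% of all genes passed downward against Chx and 51.1% against WT. Efnb2 came next among the genes with at least 200 reads in the pair, with -0.38 (SE 0.08) against Chx and -0.10 (SE 0.08) against WT, neither past the fold. Ephrins of similar size did not move together, since Efna3 had ratios of 0.50 (SE 0.17) and 0.80 (SE 0.18).

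The ratios were higher at greater CDS length, as they were over all genes. Across the 57 genes, Spearman's rho between CDS length and the ratio of Harr to Chx was 0.49, and over all 11459 genes it was 0.59. These genes and lengths share the same libraries, and rho is given as a description. Below 1200 nucleotides the median was -0.38 for 7 guidance genes and -0.58 for all genes, from 2000 to 4000 nucleotides 0.30 for 32 genes against 0.36, and from 4000 nucleotides 0.58 for 14 genes against 0.66. For Harr against WT the medians of guidance genes and all genes were -0.10 and -0.59 below 1200 nucleotides. They were 0.47 and 0.44 from 2000 to 4000 nucleotides, and 0.90 and 0.77 from 4000 nucleotides. Against Chx, the medians within length classes thus lay near those of all genes, and Robo2, Robo1 and Dcc lay above the upper quartile of 0.91 for long genes. Efnb1 lay below the lower quartile of -1.10 for short genes. Ntn1 lay below the lower quartile of -0.43 for genes of 1200 to 2000 nucleotides.

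**Figure D2:**
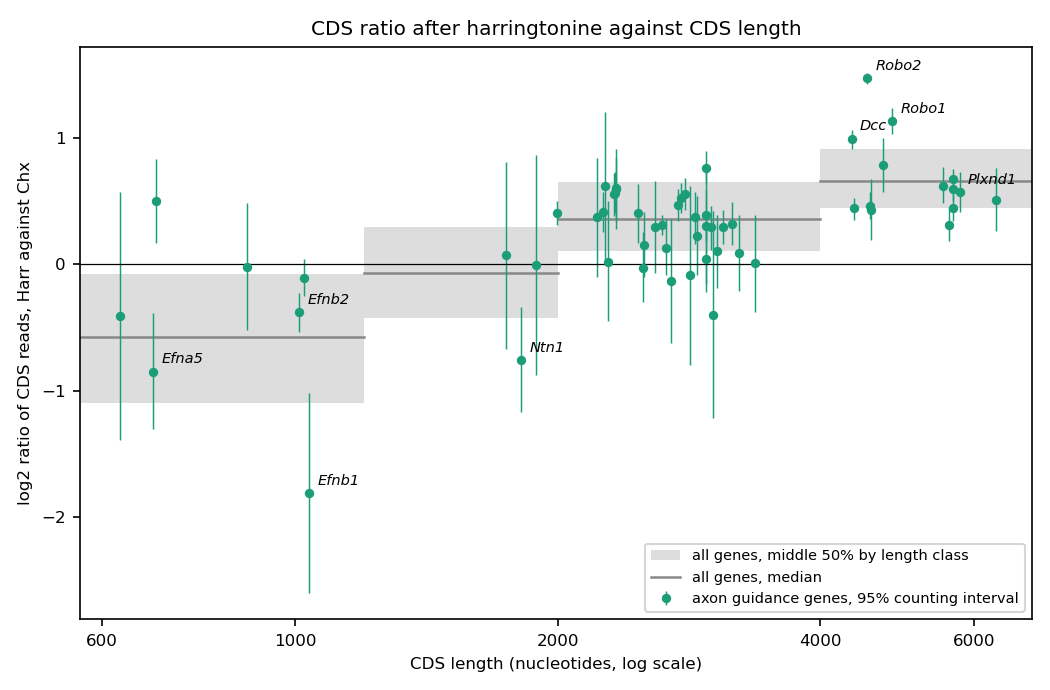
Log2 ratio of CDS reads, Harr against Chx, against CDS length (log scale) for the 57 guidance genes with at least 100 CDS reads, with 95% counting intervals. Grey bands and lines give the middle 50% and the median of all genes in 4 length classes; Robo2 at 1.47 and Efnb1 at -1.81 are the extremes.

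Between the drugless and the cycloheximide library most genes leaned toward Chx, by small amounts. Chx was higher than WT for 6 of 57 genes (background 3.53%) and lower for 1 (background 2.86%), with a median of 0.24 against 0.03 over all genes. The ratio was above 0 for 50 of the 57, and for 6284 of all 11459 genes. Plxnd1 had the highest ratio at 0.66 (SE 0.06; 1455 reads in Chx and 762 in WT), followed among the genes with at least 200 reads in the pair by Ephb3 at 0.61 (SE 0.18) and Unc5a at 0.54 (SE 0.16). On the transcript with the most CDS reads Ephb3 had 0.35, under the fold, and 5 genes were higher. Robo2 had the lowest of these at -0.36 (SE 0.02), then Sema6c at -0.20 (SE 0.10) and Robo1 at -0.14 (SE 0.04). The gene past the fold downward was Ntn4, with 67 reads in Chx and 80 in WT and a ratio of -0.53 (SE 0.24).

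To see where along the CDS the Harr reads were missing, the 16 guidance genes whose CDS reaches 4000 nucleotides were split into exon segments, and each segment was placed by where its midpoint lies after the start codon. These are 9 plexins, Dcc, 3 Robo and 3 Slit genes. The ratio of Harr to Chx reads, relative to the CDS from 2100 nucleotides on, was 0.278 (95% counting interval 0.251 to 0.308) in the first 300 nucleotides and 0.235 (0.203 to 0.273) in the next 300. It was 0.369, 0.748 and 0.938 in the successive bins of 300 nucleotides, and was 1.24 (1.18 to 1.3) from 1500 to 2100 nucleotides. Relative to WT, the Harr profile had the same shape, with 0.266, 0.218, 0.348, 0.58, 0.867 and 1.1. The ratio of Chx to WT stayed between 0.776 and 0.957 in all 6 bins. The bins up to 900 nucleotides held segments of only 7 or 8 genes, since the first coding exon of most plexins is too long to be placed.

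**Figure D3:**
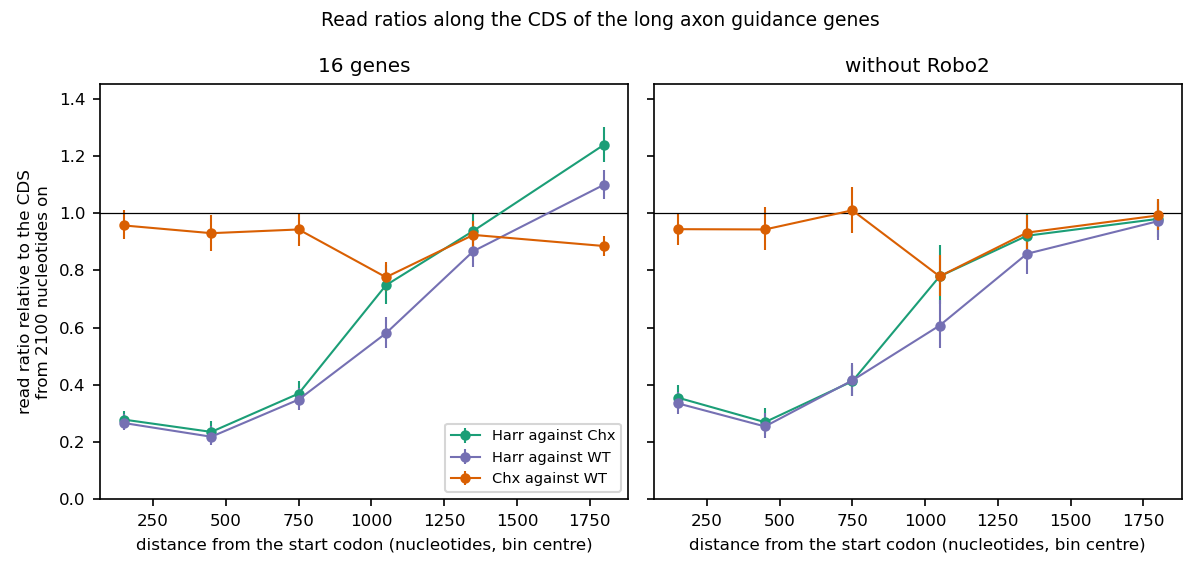
Ratio of reads between libraries (relative to the CDS from 2100 nucleotides on) against distance from the start codon, for 16 long guidance genes and without Robo2, with 95% counting intervals. Harr against Chx and Harr against WT start at 0.278 and 0.266 and approach 1 near 1500 nucleotides, while Chx against WT stays between 0.776 and 0.957 in the left panel.

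The value above 1 past 1500 nucleotides rested on Robo2. Without it, a check chosen after its read number was seen, the Harr to Chx profile read 0.355, 0.269, 0.412, 0.779, 0.921 and 0.98. Taken gene by gene, the ratio in the first 1200 nucleotides relative to the far CDS was under 1 in all 14 genes with enough reads, from 0.18 (0.0987 to 0.327) in Slit3 to 0.851 (0.647 to 1.12) in Plxnd1. The interval of Plxnd1 alone reached 1. Its first coding exon runs to 1317 nucleotides and entered whole. In Robo2 the ratio was 0.317 (0.287 to 0.35), in Dcc 0.318 (0.276 to 0.367) and in Robo1 0.474 (0.397 to 0.566). The positional ratios were not computed for other long genes, so they cannot be called particular to the guidance genes.

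Both Robo genes also had an uneven profile that was present in all 3 libraries. In Robo2 the coding exon segment 17 (chr16:73948203-73948385, minus strand, nucleotides 2501 to 2683 of the CDS) was the densest of all segments of at least 30 nucleotides in each library, with 1441 (Chx), 1127 (Harr) and 1895 (WT) reads. This is 2.68, 4.06 and 3.33 times the mean density of its CDS. In Robo1 the densest was likewise segment 17 (chr16:72989599-72989796, plus strand, nucleotides 2498 to 2695), at 2.74, 4.69 and 3.23 times the mean with 308, 215 and 330 reads. Both peaks were highest in Harr relative to the CDS mean, a mean that includes the start of the CDS, where Harr held a smaller share of reads. The Robo2 segment held 7.87 (Chx), 6.16 (Harr) and 10.4 (WT) reads per nucleotide, and the Robo1 segment 1.56, 1.09 and 1.67. These can be set against the densities of the stretches given below.

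The peak segments are counterparts of each other. They align over 200 columns with 61.5% identical bases, no other Robo1 segment of at least 100 nucleotides aligned better to the Robo2 segment, and they share no word of 25 nucleotides. In both genes a 43-nucleotide exon follows closely, with 22, 6 and 9 reads in Robo2 and 3, 4 and 4 in Robo1. Read density changed across the peak. In Robo2 the CDS from nucleotide 935 to 2683 held 4.89 (Chx), 3.19 (Harr) and 5.56 (WT) reads per nucleotide, whereas the CDS after it held 1.46, 0.576 and 1.14. Robo1 gave 0.783, 0.407 and 0.779 reads per nucleotide from 929 to 2695 and 0.312, 0.122 and 0.243 after it. The first 934 nucleotides of Robo2 held 15.6% (Chx), 3.26% (Harr) and 16.1% (WT) of its CDS reads.

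**Figure D4:**
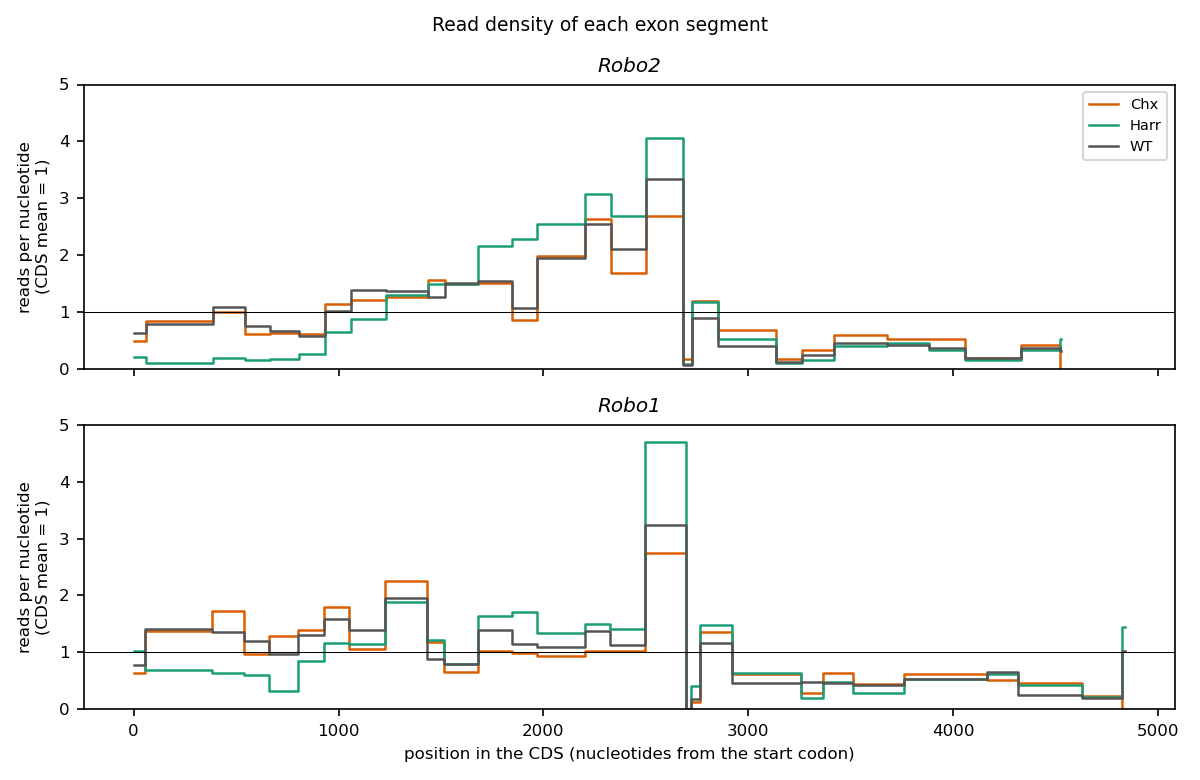
Reads per nucleotide of each coding exon segment of Robo2 (top) and Robo1 (bottom), relative to the CDS mean, against position in the CDS, in Chx, Harr and WT. Segment 17 reaches 4.06 in Robo2 and 4.69 in Robo1 in Harr, and in Robo2 the Harr line runs lowest over the first 900 nucleotides.

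The last comparison concerned the 5′ UTR. Reads were counted at their 5′ end, so that a ribosome on the start codon falls into the 5′ UTR, and the 5′ UTR reads here include initiation at the annotated start. Of the reads of the 68 genes in Chx, 10.6% lay in the 5′ UTR (10.4 to 10.7, Wilson 95%). The share was 27.9% for Harr (27.4 to 28.3) and 9.42% for WT (9.22 to 9.62). Over all genes the shares were 8.71%, 33.5% and 6.14%. Guidance genes thus had the larger 5′ UTR share in Chx and WT and the smaller one in Harr.

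For single genes the shift is given as the log2 odds ratio of 5′ UTR to CDS reads between 2 libraries, for genes that had 10 reads or more in each region over the pair, with a fold of at least 1 and a counting interval that leaves out 0. Harr was higher than Chx for 48 of 56 genes (background 89.4%) and lower for 2 (background 0.103%), and the median was 1.95 against 2.46 for all genes. Against WT, 49 of 54 were higher (background 94.3%) and 2 lower (background 0.136%), with a median of 2.25 against 3.23. Chx was higher than WT for 6 of 54 (background 30.3%) and lower for 0 (background 1.09%), with a median of 0.24 against 0.67. With a pseudocount of 5, or with at least 50 reads per region, 3 genes were higher.

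**Figure D5:**
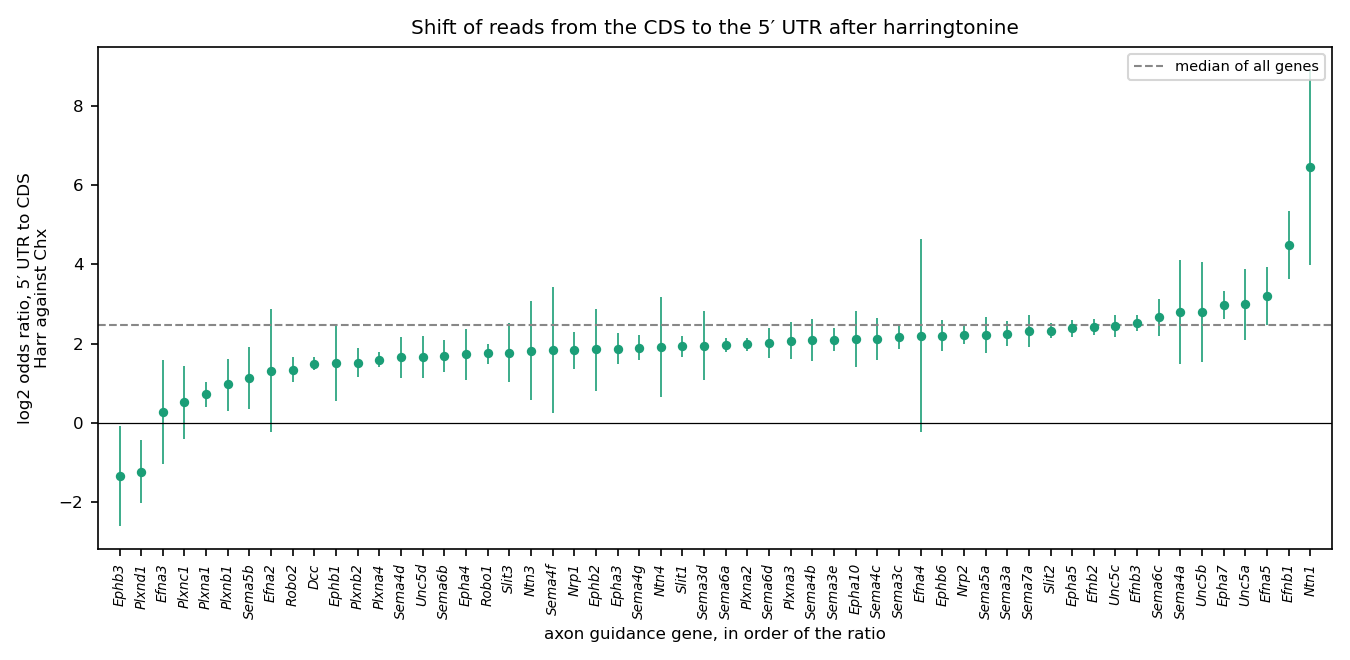
Log2 odds ratio of 5′ UTR to CDS reads, Harr against Chx, for 56 guidance genes in ascending order, with 95% counting intervals; the dashed line is the median of all genes at 2.46. Each gene is shown on its longest transcript. Ephb3 at -1.35 and Plxnd1 at -1.23 lie below 0, and Ntn1 at 6.45 and Efnb1 at 4.48 lie highest.

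Against Chx the largest shifts belonged to the ligands with the lowest CDS ratios, and both measures use the same CDS reads. Efnb1 had 121 (Chx), 144 (Harr) and 95 (WT) 5′ UTR reads beside its few CDS reads in Harr, and log2 odds ratios of 4.48 (3.62 to 5.34) against Chx and 4.26 (3.37 to 5.14) against WT. Efna5 had 50, 48 and 37 5′ UTR reads and ratios of 3.21 (2.48 to 3.93) and 3.39 (2.62 to 4.15). In both genes the raw number of 5′ UTR reads in Harr was close to that in Chx. The same held for the guidance genes as a whole (11374 in Harr and 11703 in Chx) and for all genes (2029333 and 1964171). The Harr library was smaller, with 9754412 reads against 35722483 in Chx. Per library read, the 5′ UTR reads were therefore higher in Harr. The 5′ UTR RPKM, computed like the CDS RPKM, was 4.48 (Chx) and 19.5 (Harr) for Efnb1, and 7.48 and 26.3 for Efna5. Ntn1 had the highest value, 6.45 (3.99 to 8.91), from 1, 14 and 1 reads in the 5′ UTR of its longest transcript. On its most-read transcript, with 53, 51 and 35 5′ UTR reads, the ratio was 3.12 (SE 0.35) against Chx and 3.23 against WT. Both lay below the ratios of Efnb1 and Efna5, so the top rank of Ntn1 held for its longest transcript only. Unc5a, a receptor, was above Efna5 against WT with 3.59 (2.43 to 4.75) from 25, 34 and 9 reads, at a CDS ratio of 0.42.

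Ephb3 and Plxnd1 passed the fold in the other direction. Ephb3 had 68 (Chx), 6 (Harr) and 63 (WT) 5′ UTR reads and ratios of -1.35 (-2.60 to -0.09) and -2.13 (-3.40 to -0.86). Of its long annotated 5′ UTR, 547 nucleotides are CDS in other transcripts, and on the most-read transcript of the gene, with 65, 53 and 24 5′ UTR reads, the ratio against Chx was 1.84 (SE 0.33) and the one against WT was 2.63 (SE 0.41). In the longest transcript the first 5′ UTR segment, 1530 nucleotides, held 0 reads in each library. All its 5′ UTR reads lay in the 547 nucleotides after that segment, a length equal to the part that is CDS elsewhere. The direction for Ephb3 therefore depended on the transcript.

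Plxnd1 had 122, 14 and 70 reads in a 5′ UTR of 200 nucleotides, and ratios of -1.23 (-2.03 to -0.43) and -1.37 (-2.20 to -0.53). Its longest transcript is also its most-read one, and no part of this 5′ UTR is CDS in another transcript. With a pseudocount of 5 the ratios of Plxnd1 were -0.90, under the fold, and -1.07. Among the other plexins, Plxnc1 had ratios of 0.52 (-0.40 to 1.44) and 0.63 (-0.35 to 1.61). Plxna1 had 0.72 against Chx and Plxnb1 had 0.97, and both passed the fold upward against WT. The other 4, Plxna2, Plxna3, Plxna4 and Plxnb2, passed the fold upward in both comparisons, with 1.52 to 2.07 against Chx. The plexin medians over 8 genes were 1.24 against Chx and 1.69 against WT. Efna3, next lowest against Chx after Ephb3 and Plxnd1, had 20, 6 and 3 reads and 0.27 (-1.05 to 1.58). Ephb1, next lowest against WT, had 28, 18 and 39 reads and 0.57 (SE 0.47).

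Ephb3, Plxnd1 and Plxnc1 are 3 of the 5 measured genes with a pyrimidine 3 bases before the start codon, visible in the sequences of Ephb3 and Plxnd1 above. The other measured genes of this kind, Ephb6 and Sema4d, had ratios of 2.20 and 1.65 against Chx. The value of Ephb3 holds for its longest transcript alone, as given above, so no median over these 5 genes is set against the 51 with a purine. Over all genes the medians were 2.17 for 1418 genes with a pyrimidine and 2.52 for 9233 with a purine. This split was chosen after the values were seen and is a description.

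Few of these genes had a larger 5′ UTR share in Chx than in WT past the fold. Efna3 had the highest ratio of Chx to WT at 1.97 (0.31 to 3.62) from 20 and 3 reads. With a pseudocount of 5 it was 1.07, below Sema6b at 1.51. Efna2, another GPI-anchored ephrin, had 1.42 (0.05 to 2.78) from 21 and 6 reads, or 0.95 and under the fold with a pseudocount of 5. Sema6b, a transmembrane semaphorin, had 180 (Chx), 118 (Harr) and 39 (WT) 5′ UTR reads and a ratio of 1.63 (1.11 to 2.14). The 29 nucleotides before its start codon form a segment of their own, which held 143 (Chx), 117 (Harr) and 27 (WT) of these reads, while the 130 nucleotides upstream held 37, 1 and 12. Nearly all Harr reads of the Sema6b 5′ UTR therefore began within 29 nucleotides of the start codon. The lowest ratios of Chx to WT were -1.29 (-3.40 to 0.81) for Ephb4, -0.93 (-1.69 to -0.17) for Ephb1 and -0.78 (-1.39 to -0.18) for Ephb3, none of them past the fold. The value of Ephb3 turned to 0.79 on its most-read transcript.

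In 12 of the genes the last 5′ UTR exon segment spans 10 to 60 nucleotides, so that reads near the start codon could be told from those upstream. Together these segments took 27.1% of the 5′ UTR reads for Chx (25.3 to 29, Wilson 95%), 25.3% for Harr (23.4 to 27.2) and 18.9% for WT (16.9 to 21.1). Per nucleotide they were 3.43, 3.11 and 2.14 times as dense as the 5′ UTR upstream. These values rested on Sema6a. Without it, a check chosen after its read number was seen, the shares were 46.2%, 45.7% and 39.2% and the density ratios 7.41, 7.26 and 5.57. The genes differed widely in Harr. Sema6b had 99.2% of its 5′ UTR reads in this segment, Plxna3 72.2% and Sema6c 10.2%. Sema6a had 4.29%, with 960 Harr reads farther upstream in 593 nucleotides.

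Reads in the 3′ UTR were rare, at 0.273% (Chx), 1.15% (Harr) and 0.419% (WT) of the reads of the 68 genes, where over all genes the shares were 1.71%, 4.1% and 2.18%. Relative to CDS density, among the genes with at least 100 CDS reads, Slit1 had the highest 3′ UTR density in WT at 6.93%. It had 75 (Chx), 35 (Harr) and 64 (WT) 3′ UTR reads. In Slit1, 239 nucleotides of the 3′ UTR are CDS in another transcript, and its most-read transcript had 1, 0 and 0 3′ UTR reads. Slit3 followed at 6.31% from 0, 0 and 2 reads and Sema4c at 4.04% from 2, 3 and 6 reads. Chosen after their values were seen, Dcc had 2 (Chx), 41 (Harr) and 12 (WT) 3′ UTR reads, Slit2 had 0, 32 and 16, and Robo2 had 2, 28 and 6. In these 3 long-CDS genes the shallowest library had the most 3′ UTR reads.

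Genes that work with the ligands and receptors were taken as further lists, also chosen with earlier results known. Of 14 cell surface and secreted partners, 5 had a higher CDS ratio in Harr than in Chx past the fold (background 20.1%) and 1 a lower (background 26.8%), with a median of 0.26 against -0.05 over all genes. The 5 were Neo1, Dscam, L1cam, Nrcam and Chl1, with a CDS of 3561 to 6042 nucleotides. Of all genes, 35.8% passed upward from 2000 to 4000 nucleotides and 66.3% from 4000 on. Cntn2 (3123) and Flrt1 (2025) did not pass. The 1 lower gene, Ntng1, has a CDS of 1317 nucleotides. Highest were Neo1, a netrin and Rgm receptor, at 1.43 (SE 0.03) and the adhesion molecule Nrcam at 1.21 (SE 0.02). Lowest were the membrane-anchored netrins Ntng1 at -0.85 (SE 0.25) and Ntng2 at -0.43 (SE 0.14). Against WT, 6 were higher (background 23.2%) and 1 lower (background 26.4%), from Neo1 at 1.32 and Nrcam at 1.08 down to Ntng2 at -0.14 and Ntng1 at -0.65. Between Chx and WT, 2 were higher (background 3.53%) and 0 lower (background 2.86%), with Cntn2 at 0.59 and Flrt1 at 0.53 on top and Nrcam at -0.13 and Chl1 at -0.14 at the bottom.

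The intracellular effectors lay near the level of all genes. Of 20 effectors 19 had enough CDS reads, and 2 were higher (background 20.1%) and 5 lower (background 26.8%) in Harr than in Chx, with a median of -0.10 against -0.05 over all genes. Mical3, of a family of enzymes that oxidize actin, had 0.73 (SE 0.10) and Farp2 0.56 (SE 0.20). Chn1, a Rac GTPase-activating protein downstream of Epha4, had the lowest ratio at -1.05 (SE 0.16), and the semaphorin signal protein Crmp1 had -0.76 (SE 0.02). The 2 higher effectors have a CDS of 5982 and 3198 nucleotides, and the 5 lower ones of 1143 to 2061. Against WT, 3 were higher (background 23.2%) and 4 lower (background 26.4%), from Mical3 at 0.66 and Trio at 0.64 down to Dpysl4 at -0.80 and Chn1 at -1.03. Between Chx and WT, 0 were higher (background 3.53%) and 1 lower (background 2.86%), with Farp1 at 0.27 and Mical2 at 0.26 on top and Pak1 at -0.29 and Nck1 at -0.60 at the bottom.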

How the data were processed

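Ribosome footprints of 3 libraries (Chx, Harr and WT) were analysed. The authors deposited whole-number counts per exon segment of each transcript, a coverage signal that is the count per nucleotide, and RPKM. Per the file headers, Plastid counted each read at its 5′ end (offset 0), kept reads of 25 to 100 nucleotides, and took mm10 alignments cleared of ribosomal reads and duplicates. TopHat is named for the ORF-RATER run of the study and Rsubread for its other Plastid counts; which of them made the alignments counted here is not given in the sources used here. Counts could not show reads that align to several places: Sema3a shares 10.2% of its 25-nucleotide CDS words with other genes, the others less. Counts alone were used, and RPKM was recomputed. Groups came from the recorded treatment, since the description field of the samples refers to fractions of a different experiment.

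Identifiers were joined to GENCODE M21 (99.07% of 142446 matched with their version). Segments were summed per transcript and region, and the longest transcript with all 3 regions was taken per gene. The longest transcripts of Robo3, Sema3b and Sema4g are annotated as targets of nonsense-mediated decay. CDS ratios used reads per 1000000 CDS reads of all genes, a pseudocount of 0.5 and SEs from counting. Genes were named by rule: the highest and lowest CDS RPKM in WT of each family, the 3 highest and 3 lowest of each ratio in each pair of libraries (CDS ratio, at least 200 CDS reads in the pair; 5′ UTR ratio, at least 10 reads per region), the 3 highest 3′ UTR densities in WT (at least 100 CDS reads), and the 2 highest and 2 lowest of the partner and effector lists. Families and lists were chosen with earlier results of these data known. Alternatives changed the transcript, scaling, read minimum, pseudocount, fold, word sharing, UTR overlap and positional limits. Functions were tested on simulated data. Python 3.11.15, NumPy 2.4.6, pandas 2.3.3, SciPy 1.17.1, Biopython 1.88 and matplotlib 3.10.9 were used.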

Additional observations from a re-analysis of the deposited data

How the results depend on the processing

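No paired analysis was possible because each treatment has 1 library. Of 222 recomputed values 173 stayed within the limits set for them: the counting interval of a value, or a factor of 1.5 for a count. Size factors moved all CDS ratios by at most 0.04 on the log2 scale. The medians of both ratios stayed within their limits under every alternative.

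The counts of genes past the fold moved as follows. With a fold of 1 in place of 0.5, the CDS ratio was higher in Harr for 2 genes (Chx) and 3 (WT), lower for 1 and 1, and 0 and 0 passed between Chx and WT. With at least 1000 CDS reads, 0 genes were lower in any pair, since the short ligands fall below that number, and 2 were higher in Chx than in WT. For the 5′ UTR ratio, genes lower in Harr than in Chx numbered 0 with a pseudocount of 5, 1 on the most-read transcript and 1 without the 7 genes whose UTRs overlap a CDS; against WT both of the latter gave 1. Ephb3 turned to 1.84 and 2.63 on its most-read transcript, and for Chx against WT to 0.79. Genes higher in Chx than in WT numbered 3 with a pseudocount of 5 and 3 with at least 50 reads per region.

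The Harr to Chx ratio in the first 1200 nucleotides of the long genes (0.386) was 0.449 with the far CDS from 3000 nucleotides, 0.429 with segments up to 300 nucleotides and 0.412 without Robo2, the last chosen after seeing the data. Against WT (0.35) these were 0.371, 0.384 and 0.383. Without the overlapping genes the 5′ UTR share was 10.8% (Chx) and 9.64% (WT), and the 3′ UTR share 0.211% and 0.35%.

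Harr, the shallowest library, limits precision: genes with few Harr reads, such as Efnb1 and Ntn1, have wide intervals.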
